A study of Mus musculus with 19 samples.

Results

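A set of 10 glycolytic enzymes was followed through the series. They were chosen by symbol, and all 10 were found among the 23420 genes of every library: the hexokinases Hk1 and Hk2, glucose phosphate isomerase (Gpi1), the liver and platelet phosphofructokinases (Pfkl, Pfkp), aldolase A (Aldoa), glyceraldehyde phosphate dehydrogenase (Gapdh), enolase (Eno1), pyruvate kinase (Pkm) and lactate dehydrogenase A (Ldha). The data were RNA-seq read counts per gene from 19 libraries of cultured mouse pluripotent cells. They fell into 3 embryonic stem cell lines (ESC) of NOD/ShiLtJ, WSB/EiJ and 129S1/SvImJ, 2 epiblast stem cell lines (EpiSC), 1 of NOD/ShiLtJ and 1 labelled 129, and 14 libraries of induced pluripotent stem cells (iPSC) of the same strains. ESC correspond to the naive state of the early embryo and EpiSC to the later, primed state.

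All ESC and EpiSC were male. The ESC were at passage 6, the NOD/ShiLtJ EpiSC at passage 38 and the 129 EpiSC, by the methods a line of 129/Sv background supplied by another laboratory than the NOD/ShiLtJ line, at passage 16. The iPSC were 2 male and 2 female NOD/ShiLtJ clones and 4 WSB/EiJ clones (2 male, 2 female) in 2iS, a serum medium with inhibitors of MEK and GSK3B and LIF. The 129S1/SvImJ iPSC were 4 clones in serum with LIF (ESC/LIF), of which 1 and 17 were male and 5 and 8 female. Clones 1 and 17 were also sampled after transfer to 2iS, so that female 129S1/SvImJ clones were in ESC/LIF only. The transferred clones were sampled at passages 30 and 31, against 20 and 21 in ESC/LIF, so medium and passage cannot be told apart. By the labels the NOD/ShiLtJ and WSB/EiJ ESC grew in 2iS, and for the 129S1/SvImJ ESC both 2iS and ESC/LIF were named. The methods give serum, LIF, sodium pyruvate and inhibitors of MEK and GSK3B for the ESC of every strain. Sodium pyruvate is not listed there for the media of the iPSC. EpiSC grew in their own medium, so that their state and medium cannot be told apart either. By the methods the ESC came from a laboratory other than those that supplied the EpiSC, and the iPSC were made in the study. The iPSC were sampled at passages 16 to 31. State therefore cannot be told apart from origin, nor the ESC from their low passage. All iPSC had been made with a constitutive lentivirus for Oct4, Klf4, Sox2 and Myc that was not removed, and according to the methods they were depleted of feeder fibroblasts. Each library was 1 line or clone, but 129S1/SvImJ clones 1 and 17 gave 2 libraries each. Except in 1 alternative fit for medium, the fits counted these as independent libraries. The p-values measure the spread between libraries.

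Glycolysis turns glucose into pyruvate in the cytosol. Hexokinase traps glucose as glucose 6-phosphate, the isomerase converts it to fructose 6-phosphate, phosphofructokinase commits it to the pathway, aldolase splits the sugar, and the later enzymes harvest ATP and end in pyruvate, which lactate dehydrogenase A can reduce to lactate. Naive and primed pluripotent cells are known for different use of this pathway: primed cells rely on it heavily, whereas naive cells also respire.

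Of the uniquely aligned read pairs, 1.15% to 1.74% were counted on genes in 17 libraries and 5.59% and 5.62% in the NOD/ShiLtJ male iPSC, which gave 92996 to 226794 counts against 430173 and 567432. Exons on the opposite strand were annotated for 24.6% of all matched genes, but for 90.6% of the matched genes among the 100 with the most counts in the 17 libraries and for 41.2% in the NOD/ShiLtJ males. The library kit marks strand, and the strand setting of the counting is not given in the sources used here. Whether the counts of a gene came from its own strand was therefore not tested, and every level below is a count on the gene's name rather than a measured amount of its mRNA. The NOD/ShiLtJ male iPSC, which the study also set apart, were kept out of the comparisons of cell states. In 0 of 19 libraries did counts on Y chromosome genes go against the sex in the title, which set the groups here, although other label fields disagreed with the titles.

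Levels of the members are given as CPM (counts per 1000000 gene counts, scaled by TMM), with the SD over libraries. Per kilobase of annotated exon the order of these counts over the 17 libraries was Aldoa at 168 ± 86.5 CPM per kb (SD, n = 17), Pkm at 142 ± 48.8, Ldha at 96.2 ± 34.6, Pfkp at 44.7 ± 19.3, Hk2 at 24.2 ± 9.69, Gpi1 at 13.6 ± 8.02, Pfkl at 11.8 ± 6.97, Hk1 at 3.42 ± 4.13, Gapdh at 3.37 ± 2.81 and Eno1 at 0.483 ± 0.733. Of neighbours in this order, Aldoa and Pkm, Pkm and Ldha, Gpi1 and Pfkl, and Hk1 and Gapdh differed by less than the larger SD of the pair. This is an order of counts, and since their strand was not tested it is not an order of mRNA. Gapdh and Eno1, genes of 2 enzymes that are usually abundant, were at the bottom: Gapdh had 0 to 6 counts in each of the 17 libraries and 15 and 27 in the NOD/ShiLtJ males, and Eno1 had 0 or 1 count in all 19. A count of 0 allows up to 13.2 to 32.3 CPM in those 17 libraries, counting error only, and differences in these 2 genes were not detectable at such counts. They failed the filter on low counts, and 8 of the 10 members were tested between cell states.

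**Figure D1:**
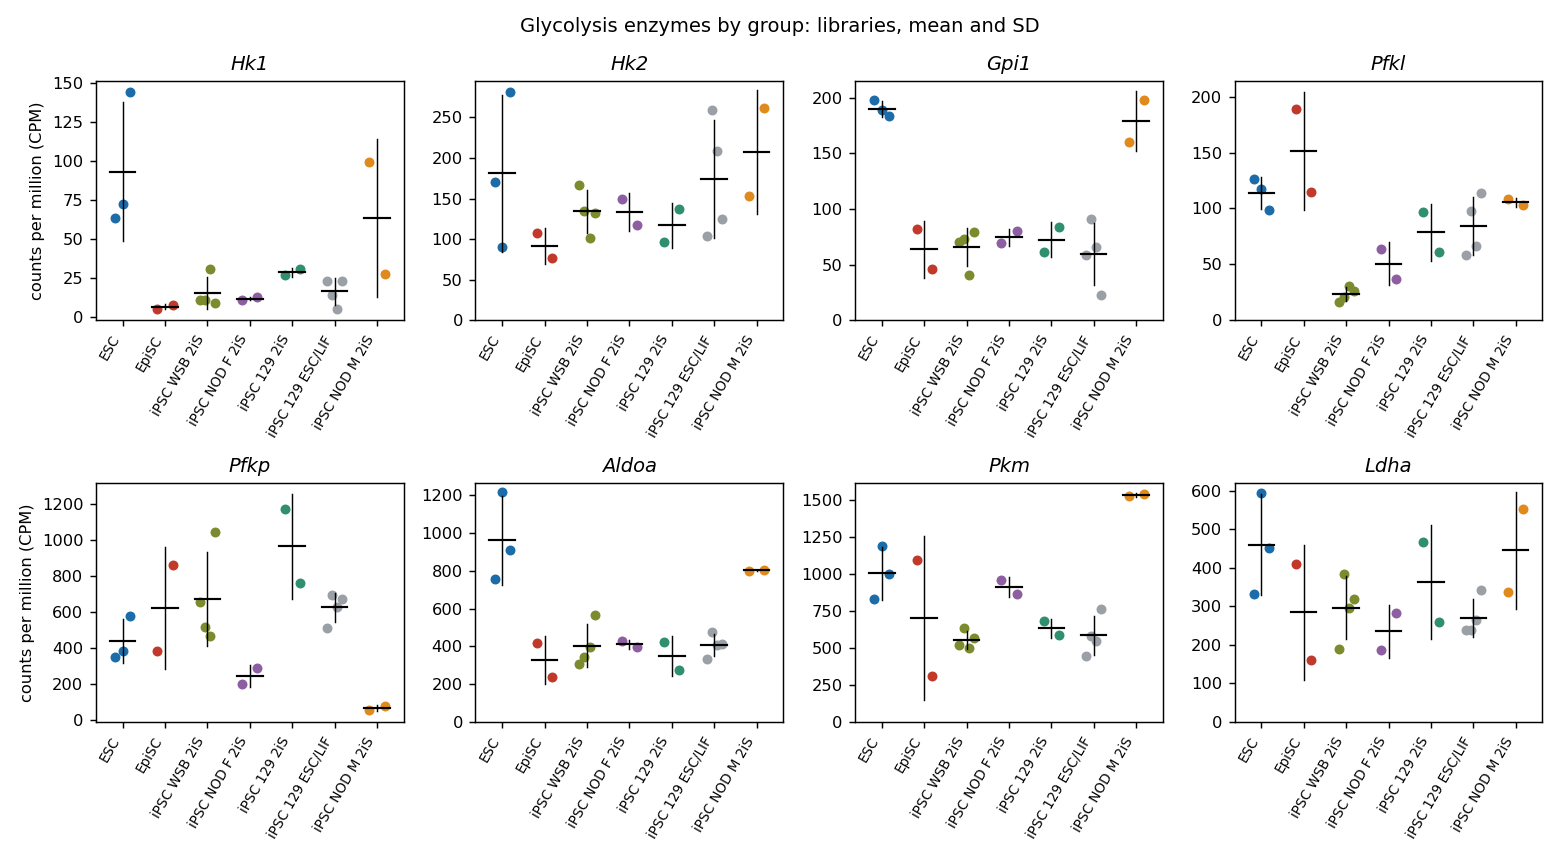
Each panel plots CPM of 1 enzyme on the vertical axis, 1 point per library in the 7 groups, with the mean (horizontal bar) and SD (vertical line). Hk1, Gpi1 and Aldoa sit higher in the 3 ESC than in the 2 EpiSC and in all iPSC but the NOD/ShiLtJ males.

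The comparison of EpiSC with ESC asked how the primed state differs from the naive. Hk1, Gpi1 and Aldoa were lower in EpiSC, and the other 5 tested members did not pass the test. Of the 8 members, 3 were called (adjusted p under 0.05 from edgeR's quasi-likelihood test over all tested genes), where over all genes 601 of 3986 were called, 15.1%, with 6.85% lower and 8.23% higher in EpiSC. In 3 of the 8 the CPM of the groups did not overlap, as in 41.2% of all tested genes. The median log2 fold change of the 8 members was -0.82, beside -0.06 for all genes.

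Aldoa (ENSMUSG00000030695.16, chromosome 7, 126795234 to 126800751, minus strand, GENCODE M21 on GRCm38), which splits fructose 1,6-bisphosphate, had 756, 1215 and 911 CPM in the NOD/ShiLtJ, WSB/EiJ and 129S1/SvImJ ESC and 419 and 236 in the NOD/ShiLtJ and 129 EpiSC. All 3 ESC lay above both EpiSC. EpiSC had a 2.87-fold lower level (log2 -1.52 with a standard error of 0.33; edgeR adjusted p = 0.0036). Only 25 bases of its exons lie opposite another gene, Fam57b.

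Gpi1 (ENSMUSG00000036427.5, chromosome 7, 34201330 to 34230336, minus strand), the second enzyme of the pathway, had 198, 189 and 183 CPM in the ESC and 81.7 and 45.8 in the EpiSC. The ESC were tightly grouped, and again the groups did not overlap. On the log2 scale EpiSC fell by 1.52 (standard error 0.39; edgeR adjusted p = 0.0121). Its exons share 741 bases with a gene on the other strand, Gm26762, so reads of the pair cannot be told apart without strand.

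Hk1 (ENSMUSG00000037012.18, chromosome 10, 62268855 to 62379908, minus strand) encodes the hexokinase that binds mitochondria in most tissues. It had 7, 8 and 22 counts in the ESC (63.0, 72.0 and 144 CPM) and 1 count in each EpiSC (5.11 and 7.63 CPM). Pooled over libraries without TMM scaling, Hk1 had 37 of 384215 gene counts in ESC against 2 of 412554 in EpiSC. The ratio was 19.9 (exact 95% interval 5.12 to 170.1, counting error only), and it is not on the scale of the fit. edgeR fitted -3.76 on the log2 scale, with a standard error of 0.88 and an adjusted p of 0.0063. 157 bases of its exons lie opposite Hk1os. With the NOD/ShiLtJ male iPSC added to the fit, 0 members were called by edgeR in any of the 3 comparisons of states, where 4.46% of 4641 genes were called in EpiSC against ESC, 18.5% in iPSC against EpiSC and 3.6% in iPSC against ESC. The fitted log2 fold changes of Aldoa, Gpi1 and Hk1 were then -1.54, -1.54 and -3.81 in EpiSC against ESC, and -1.06, -1.10 and -1.77 in iPSC against ESC.

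The muscle-type hexokinase gene Hk2 had 171, 90.0 and 282 CPM in the ESC and 107 and 76.3 in the EpiSC, and the groups overlapped (log2 fold change -0.98, adjusted p = 0.16 from edgeR). Both phosphofructokinase genes had fitted values above 0. Pfkl had 126, 117 and 98.3 CPM in the ESC and 189 and 114 in the EpiSC (0.45, adjusted p = 0.60), and Pfkp had 351, 387 and 577 CPM against 383 and 862 (0.47, adjusted p = 0.57), both by edgeR. Neither passed the test, and both overlapped between the groups.

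Pkm, the last enzyme to make ATP, and Ldha, which follows it, differed between the 2 EpiSC lines. Pkm had 828, 1188 and 996 CPM in the NOD/ShiLtJ, WSB/EiJ and 129S1/SvImJ ESC, and 1093 in the NOD/ShiLtJ but 313 in the 129 EpiSC. Ldha had 333, 594 and 452 CPM in the ESC and 409 and 160 in the EpiSC. Between all EpiSC and ESC the log2 fold changes were -0.48 for Pkm (adjusted p = 0.45) and -0.65 for Ldha (adjusted p = 0.29), both by edgeR. Without the NOD/ShiLtJ EpiSC both passed (adjusted p = 0.0129 for Pkm and 0.0458 for Ldha), and 5 members were called, where 12.7% of 4694 genes were called. Without the 129 EpiSC 1 member was called, Hk1, where 5.56% of 4710 genes were called; Aldoa and Gpi1 had log2 fold changes of -1.16 and -1.18.

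The difference between strains was fitted as EpiSC minus ESC in NOD/ShiLtJ against the same in 129. Each arm was 1 library, and the spread of the fit came from the iPSC groups. That spread does not measure variation between ESC or EpiSC lines, so only the sizes are given. This contrast was chosen after seeing the data. For Pkm it was 2.15 on the log2 scale (standard error 0.53, adjusted p = 0.0319 from edgeR), and it was the 1 member of 8 called, where 1.56% of 4994 genes were called. For Ldha it was 1.87 (adjusted p = 0.198) and for Aldoa 1.17 (adjusted p = 0.373). The 2 EpiSC lines also differed in passage and origin, and the 129 ESC and EpiSC may not be of 1 substrain, so strain, line and passage cannot be told apart.

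**Figure D2:**
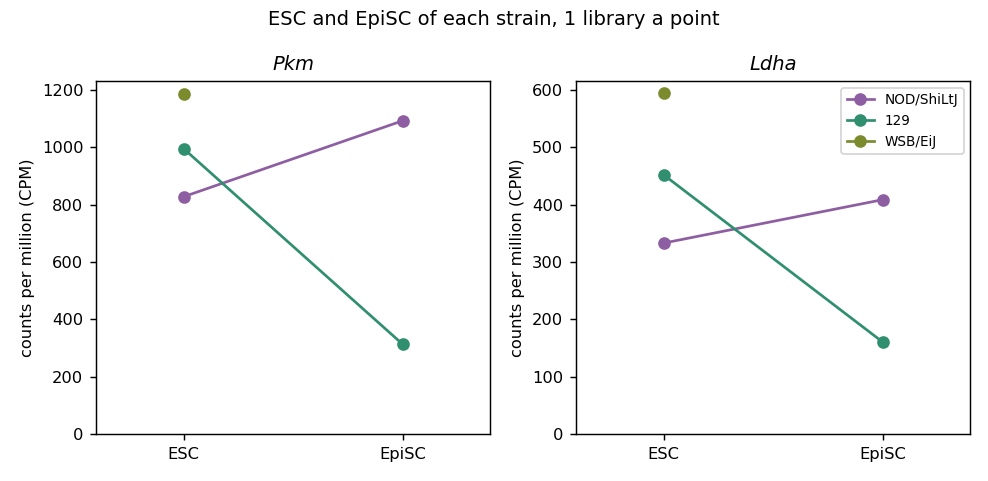
CPM of Pkm and Ldha (vertical axes) in the ESC and EpiSC of each strain, 1 library a point, with lines joining the libraries of 1 strain. Pkm went from 828 to 1093 CPM in NOD/ShiLtJ and from 996 to 313 in 129.

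iPSC were compared with ESC to see how far reprogrammed cells match embryo-derived ones. The same 3 members were called, all lower in iPSC, out of 8 tested. Over all genes 248 of 3986 were called, 6.22%, with 5.22% lower. The median log2 fold change was -0.85 for the members and 0.05 for all genes. This comparison and the last share the 3 ESC, so the shared members are not a second, independent observation. The ESC were all male, at passage 6 and from another laboratory, whereas the iPSC were of both sexes and at passages 16 to 31. By the methods the ESC medium held sodium pyruvate, which is not listed for the iPSC media. State, origin, medium and passage cannot be told apart here.

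Aldoa had 274 to 565 CPM in the 12 iPSC, with a median of 402, and every iPSC lay below the 3 ESC. On the log2 scale the difference from ESC was -1.29 (standard error 0.21; edgeR adjusted p = 0.00028). Gpi1 had 22.8 to 91.1 CPM (median 69.7), all below the ESC, with -1.50 (standard error 0.26, adjusted p = 0.00050). Hk1 had 1 to 5 counts in each iPSC, 5.09 to 30.5 CPM (median 13.2), also all below the ESC, with -2.48 (standard error 0.46, adjusted p = 0.0014). Here too Hk1 passed the filter on low counts only through the ESC, so its call is not independent of that selection.

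The other 5 members did not pass the test. Pkm had 445 to 956 CPM in the 12 iPSC (median 583; log2 fold change -0.68, adjusted p = 0.15), Ldha 187 to 467 (274; -0.70, adjusted p = 0.14), Hk2 96.9 to 259 (134; -0.36, adjusted p = 0.57) and Pfkp 203 to 1172 (642; 0.49, adjusted p = 0.51), all by edgeR. Pfkl had 16.15 to 114 CPM (59.6; -1.005, adjusted p = 0.15), and it passed the test with strain as a covariate (adjusted p = 0.0481). These 5 ranges all overlapped the ESC. The share of all genes without overlap was not counted for iPSC against ESC, so overlap here only describes the values.

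Between iPSC and EpiSC 1 of 8 members was called, where 28.3% of 3986 genes were called. That member was Pfkl, the liver-type phosphofructokinase, at 189 and 114 CPM in the EpiSC against 16.15 to 114 in the iPSC (log2 fold change -1.45, standard error 0.42, adjusted p = 0.0124 from edgeR). The highest iPSC and the lower EpiSC were nearly level. The call was lost without the NOD/ShiLtJ EpiSC (-0.996) and with uniquely aligned read pairs as library size (-0.97), under which Hk2 was called higher in iPSC instead (adjusted p = 0.0487). Aldoa, Gpi1, Pfkp, Pkm and Ldha had log2 fold changes between -0.20 and 0.23 here, with standard errors of 0.27 to 0.43, while Hk1 had 1.27 (0.86) and Hk2 0.62 (0.40); none of these 7 passed the test.

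**Figure D3:**
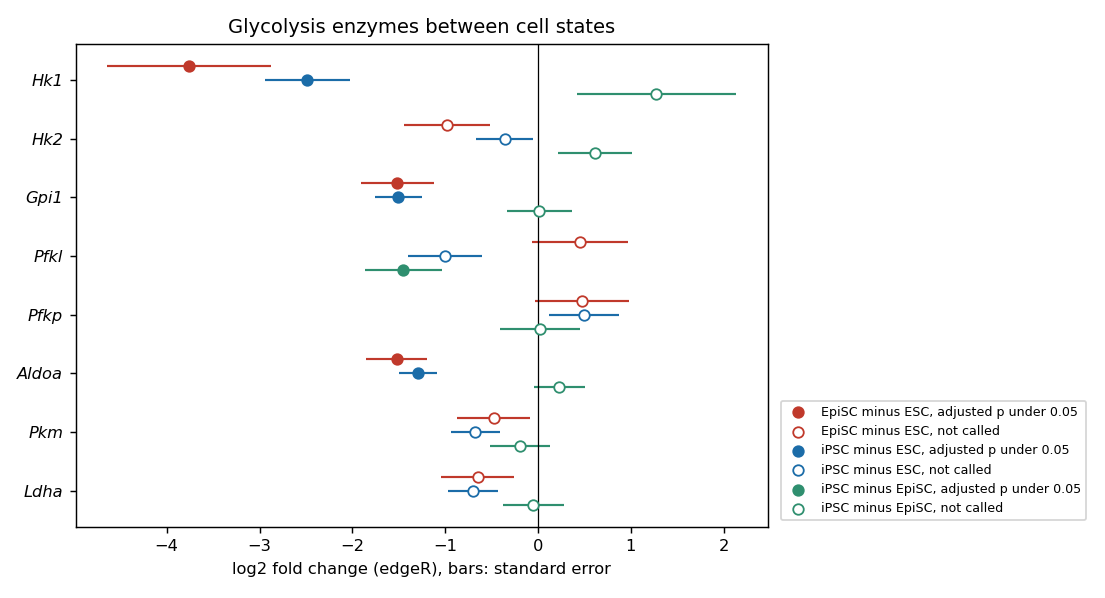
Log2 fold change (horizontal axis) with its standard error for the 8 tested members in 3 comparisons of cell states; filled points have an adjusted p under 0.05. Hk1, Gpi1 and Aldoa are filled on the negative side in both comparisons with ESC, and Pfkl alone is filled in iPSC minus EpiSC.

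The states were checked against their markers. All 9 tested naive markers, such as Zfp42 and Dppa5a, were lower in EpiSC than in ESC, and the 10 naive markers together had 5 and 7 counts in the EpiSC and 135 to 281 in the ESC. The primed markers were sparse: 2 of 11 were tested and 0 were higher in EpiSC by edgeR, also at an unadjusted p under 0.05, and Lefty2 was lower. Fgf5, Pou3f1, T, Cer1 and Fgf8 were at 0 in all ESC and counted in EpiSC. The 11 together summed to 419 and 664 CPM in EpiSC and to 275 to 729 in ESC, so the list as a whole overlapped between the states. Markers of fibroblasts moved with the ESC. The 15 summed to 1701 to 2333 CPM in ESC, 123 and 885 in EpiSC and 273 to 951 in the 12 iPSC. Fn1, a fibronectin gene that other cells also express, made up most of this in iPSC; without it the sums were 612 to 1055 CPM in ESC, 61.3 and 267 in EpiSC and 0 to 83.2 in the 12 iPSC. Col1a1, a defining collagen, had 32, 41 and 64 counts in the ESC and 0 to 3 in every other library, while Dcn and Fap were at 0 in the ESC. The part of fibroblast RNA in the lower Aldoa, Gpi1 and Hk1 was not tested, and in bulk RNA fewer cells of a type and less RNA per cell cannot be told apart. The NOD/ShiLtJ male iPSC had Aldoa at 801 and 805 CPM and Gpi1 at 160 and 198 CPM while their 15 markers summed to 3398 and 2434 CPM, the highest of all libraries, with 3392 and 2425 CPM of Fn1 and 5.89 and 9.08 CPM of the other 14, of which 8 were at 0 in both libraries.

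**Figure D4:**
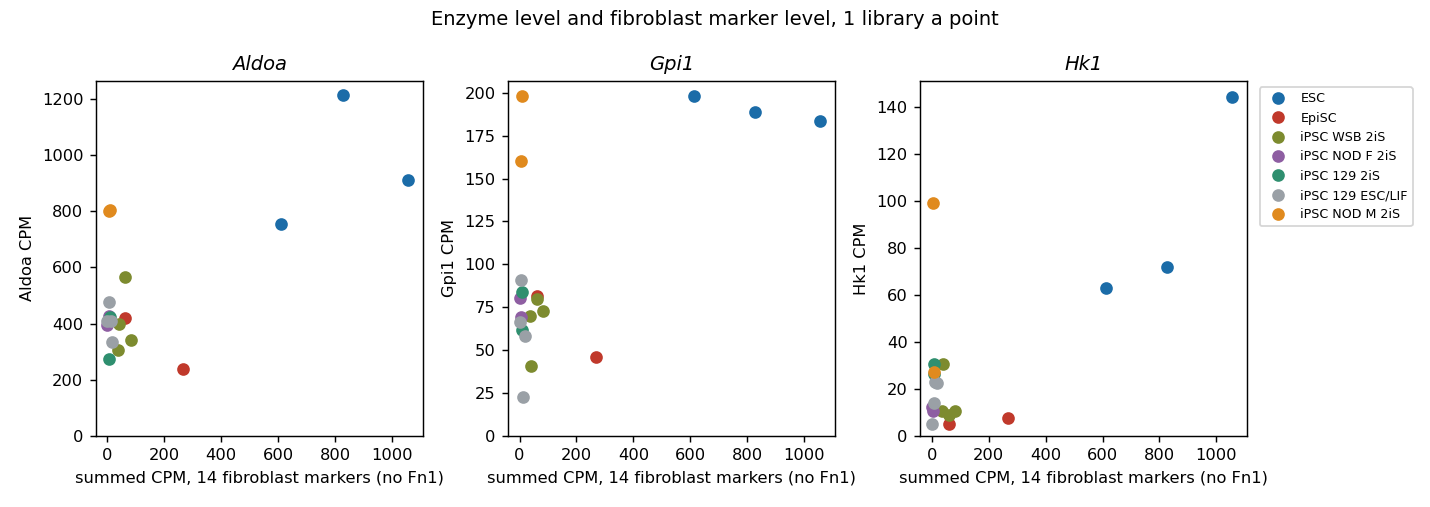
CPM of Aldoa, Gpi1 and Hk1 (vertical axes) against the summed CPM of 14 fibroblast markers without Fn1 (horizontal axes), 1 point per library in 7 groups. The 3 ESC stand apart at 612 to 1055 CPM of markers, and the NOD/ShiLtJ males, whose sums with Fn1 are the highest, lie at 5.89 and 9.08 CPM without it.

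The rest of the pathway was read from lists of related genes, most of which were too low to test. Of 20 other glycolytic enzymes and isoenzymes in the files 4 were tested, and 1 rose in EpiSC: Pgam2, the muscle phosphoglycerate mutase, at 209 and 160 CPM in the EpiSC (62 counts) against 34.1 ± 14.2 CPM (SD, n = 3) in the ESC (13 counts) (log2 fold change 2.40, standard error 0.52, adjusted p = 0.0035 from edgeR). In iPSC 1 of these 4 was lower than in ESC and 2 were lower than in EpiSC. Of 9 genes of glucose and lactate transport 5 were tested, and Slc2a1, the main glucose carrier of many dividing cells, fell in EpiSC (112 and 76.3 CPM against 243, 216 and 275; -1.35, adjusted p = 0.0210), with 105 bases of its exons opposite Gm12868. iPSC had a lower level than ESC too (-1.63, adjusted p = 0.00018), both by edgeR. Slc2a1 was the 1 gene of its list called in either comparison, and in EpiSC the median of the 5 was -0.50.

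Where pyruvate enters the mitochondrion, 3 of 13 genes were tested and 1 rose in EpiSC: Pdha1, the catalytic subunit of pyruvate dehydrogenase, at 414 and 1419 CPM against 351, 216 and 183 (1.85, adjusted p = 0.0114 from edgeR), with 603 bases of its exons opposite Map3k15. Among 13 regulators known for control of the pathway 5 were tested, and Hif1a, the oxygen-regulated factor that activates many glycolytic genes, fell in EpiSC from 1089, 207 and 596 CPM to 92.0 and 61.0 (-3.01, adjusted p = 0.0013), with 330 bases opposite Gm15283, and iPSC were likewise below ESC (-3.06, adjusted p = 2.1e-06, both by edgeR). Myc, one of the delivered factors, was called higher in iPSC than in both ESC and EpiSC. Of the 5 tested genes of the pentose phosphate pathway 0 were called by edgeR in any of the 3 comparisons of states, and 0 had an unadjusted p under 0.05. Of genes that make or remove fructose 2,6-bisphosphate 1 of 4 in the files was tested and not called, and of 7 genes of gluconeogenesis 0 passed the filter.

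Upstream sequence is shown for the 3 members that were lower than in ESC, from the RefSeq promoter windows of GRCm38.p6, which run from 250 bases before a start site to 50 after it. Capitals mark the core of the hypoxia response element, ACGTG or GCGTG, on either strand; an E-box, CACGTG, holds that core on both strands. Of several windows one with a match was shown, so the matches in the printed Hk1 and Aldoa windows were selected. Another Hk1 window (chr10:62379859-62380158) and another Aldoa window (chr7:126800398-126800697) held 0 matches. The windows are Hk1 chr10:62340372-62340671, Gpi1 chr7:34230287-34230586 and Aldoa chr7:126799205-126799504, all on the minus strand and written 5′ to 3′.
Hk1: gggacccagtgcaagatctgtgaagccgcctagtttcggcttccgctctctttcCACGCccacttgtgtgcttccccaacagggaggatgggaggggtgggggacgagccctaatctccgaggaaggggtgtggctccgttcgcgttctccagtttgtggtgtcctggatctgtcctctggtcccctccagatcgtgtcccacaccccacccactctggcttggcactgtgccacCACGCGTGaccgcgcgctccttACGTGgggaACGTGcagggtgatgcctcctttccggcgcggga
Gpi1: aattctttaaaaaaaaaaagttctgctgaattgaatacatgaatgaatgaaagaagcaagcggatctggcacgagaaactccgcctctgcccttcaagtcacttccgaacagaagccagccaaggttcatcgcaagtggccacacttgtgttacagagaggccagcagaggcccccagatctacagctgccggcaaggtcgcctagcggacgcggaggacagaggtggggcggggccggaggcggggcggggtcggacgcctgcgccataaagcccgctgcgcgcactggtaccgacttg
Aldoa: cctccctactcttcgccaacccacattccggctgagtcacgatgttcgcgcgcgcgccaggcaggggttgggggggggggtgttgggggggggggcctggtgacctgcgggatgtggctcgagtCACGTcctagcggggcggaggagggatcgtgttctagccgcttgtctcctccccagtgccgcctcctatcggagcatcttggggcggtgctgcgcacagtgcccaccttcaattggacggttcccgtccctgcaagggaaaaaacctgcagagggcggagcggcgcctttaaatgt
The Hk1 window held 5 matches, the Aldoa window 1 and the Gpi1 window 0. Of the 17 windows of the 10 members 13 held the core, beside 43.8% of all 32851 windows. Some of the 17 windows overlap one another, and the difference in share was not tested. An E-box was in 1 of the 17, at Ldha, and in 7.15% of all windows, and the GC box GGGCGG was in 10 of the 17 and in 35.7% of all. A match is a description of the letters and says nothing of use in these cells.

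Among iPSC, the comparison of 129S1/SvImJ clones in 2iS with those in ESC/LIF called 0 of 7 tested members, where 2.69% of 3388 genes were called. Nearest was Pfkp, at 1172 and 760 CPM in 2iS and 513 to 693 in ESC/LIF, with an adjusted p = 0.303 from edgeR. It was the 1 member with an unadjusted p under 0.05, where 455 of 3388 genes had one. Its groups did not overlap, and the share of all genes without overlap was not counted here. Clones 5 and 8 in ESC/LIF were female, so sex was not balanced over the media. The male clones 1 and 17 had 513 and 673 CPM in ESC/LIF. With the clone as a replicate block, and by DESeq2, the count was also 0, where 79 of 3388 and 61 of 2945 genes were called. The other 6 log2 fold changes lay between -0.59 and 0.42, with standard errors of 0.22 to 0.45.

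Strain among iPSC in 2iS called 1 of 7 members in an F test over WSB/EiJ, NOD/ShiLtJ female and 129S1/SvImJ clones, where 5.9% of 3388 genes were called. This was Pfkp (ENSMUSG00000021196.14, chromosome 13, 6579768 to 6648777, minus strand), the platelet-type phosphofructokinase, with 203 and 290 CPM in the NOD/ShiLtJ females, 657, 520, 468 and 1042 in the WSB/EiJ clones and 1172 and 760 in the 129S1/SvImJ clones (adjusted p = 0.0019 from edgeR). Both NOD/ShiLtJ clones lay below every other iPSC of these groups, including the female WSB/EiJ clones (520 and 1042 CPM). Without NOD/ShiLtJ female clone 7 the adjusted p was 0.0543. Its exons share 748 bases with Pitrm1 on the other strand, which had 32.0 and 37.0 CPM in those 2 clones, 51 to 141 in WSB/EiJ and 132 and 175 in 129S1/SvImJ; the part of this overlap in the Pfkp counts was not tested. The male WSB/EiJ clones had 657 and 468 CPM. The 129S1/SvImJ clones were male and the NOD/ShiLtJ clones female, so between these 2 groups strain and sex cannot be told apart.

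Pfkl, the sister isoenzyme, was low in all WSB/EiJ iPSC, at 16.15 to 30.5 CPM with 2 or 3 counts each, against 64.1 and 37.0 in the NOD/ShiLtJ females and 96.9 and 60.8 in 129S1/SvImJ. The WSB/EiJ clones lay below all 4 others, but the F test did not pass (adjusted p = 0.130 from edgeR). Pkm was 956 and 862 CPM in the NOD/ShiLtJ females and 499 to 678 in the other 6 clones in 2iS (adjusted p = 0.0918), and it passed when the fit held only genes that have no opposite-strand exon (adjusted p = 0.0464).

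The NOD/ShiLtJ male iPSC were set against the NOD/ShiLtJ females. Of 7 tested members 6 were called, 5 higher and 1 lower in males, where 36.1% of 4457 genes were called, 12.3% higher and 23.9% lower. Pkm had 1523 and 1541 CPM in males and 956 and 862 in females (log2 fold change 0.83), Aldoa 801 and 805 against 427 and 394 (1.04), Gpi1 160 and 198 against 69.4 and 80.1 (1.33), Ldha 338 and 552 against 187 and 283 (1.00), and Pfkl 108 and 103 against 64.1 and 37.0 (1.12). Adjusted p-values of these 5 were 0.0026 to 0.0276 from edgeR. Pfkp went the other way, with 56.6 and 81.7 CPM against 203 and 290 (-1.75, adjusted p = 0.00024).

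The sizes and calls of these changes, and the direction of Pfkp, rest on the library size, because in males more of the read pairs fell on genes. The other 5 stayed above 0 under the 3 library sizes given here. In raw counts Pkm had 1292 and 1019 in males against 179 and 140, while Pfkp had 48 and 54 against 38 and 47. Scaled to uniquely aligned read pairs, the median of all genes was 2.61 higher in males on the log2 scale, the 5 rose by 3.27 to 3.78, Hk2 was called too, and Pfkp turned to 0.70 and was not called. With TMM over genes without exons on the opposite strand, the median was -0.22, the 5 had values of 0.42 to 0.92 and were not called, and Pfkp was -2.17 and called.

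**Figure D5:**
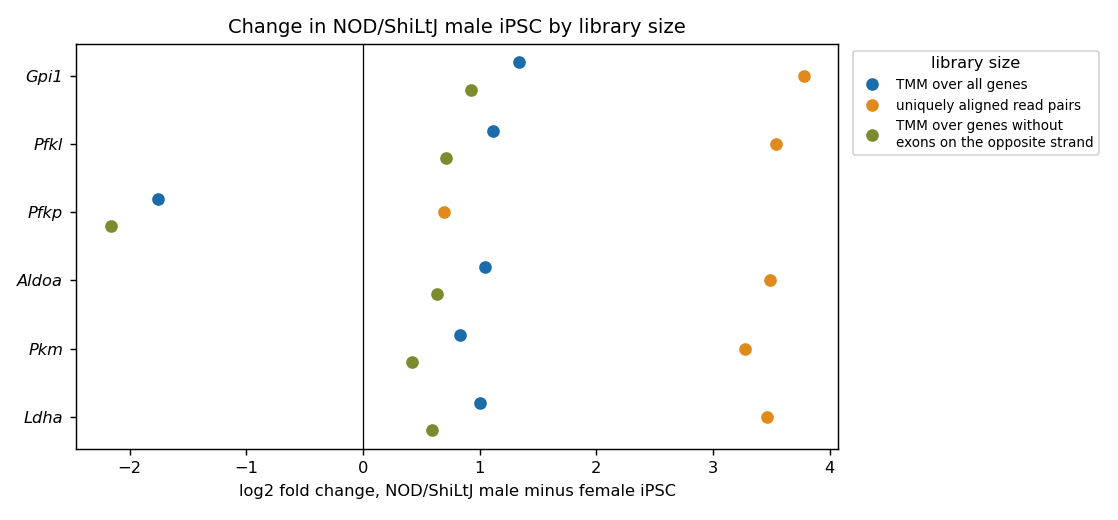
Log2 fold change of NOD/ShiLtJ male minus female iPSC (horizontal axis) for the 6 called members under 3 choices of library size. Pfkp lies at -1.75, 0.70 and -2.17, and the 6 members move together since a library size shifts all genes about alike.

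Pkm was the member with the most counts over the 17 libraries (1730). The 5 genes whose log2 CPM was most like it over these libraries, of 3985 ranked, were Phip (Pearson r 0.77), Chd4 (0.75), Raph1 (0.74), Uchl4 (0.74) and E030018B13Rik (0.72). Among the members Aldoa ranked 8 (0.70), Ldha 17 (0.66), Gpi1 102 (0.54) and Hk1 291 (0.41), and Pfkp was near the end at rank 3908 (-0.57). The values share library size and the groups of cells, and they are a description over 17 libraries.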

How the data were processed

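RNA-seq read counts per gene were deposited for each of 19 libraries. Per the methods and labels, the authors prepared libraries with a stranded mRNA kit, trimmed reads (Trimmomatic), aligned them to GRCm38 with TopHat2 2.1.1 and counted pairs per gene with HTSeq; the annotation and strand setting are not given in the sources used here. Rows that name no gene (no feature, ambiguous) were left out of library sizes and made up 94.4% to 98.9% of uniquely aligned pairs. Here counts were scaled by TMM and tested with edgeR 4.0.16 (quasi-likelihood, Benjamini-Hochberg over all tested genes, threshold 0.05) after filterByExpr; 12 iPSC, 3 ESC and 2 EpiSC were fitted together for the cell states, 12 iPSC for medium and strain, and 14 iPSC for the NOD/ShiLtJ males. DESeq2 1.42.0 was an alternative. The text names all 10 members, up to 2 called genes a list and direction in EpiSC against ESC, and the 5 genes most like Pkm. Members and lists were chosen with earlier results of these data known. The fits were tested on simulated data with 200 genes changed by 2 on the log2 scale. They recovered 75.5% to 85% of these, and 1.73% to 6.59% of the calls were false. Smaller changes were not simulated. Log2 CPM used a prior count of 2. Of the 23420 genes 98.4% matched GENCODE M21. No pair of libraries had identical counts. The clones moved to 2iS pair with themselves in ESC/LIF by the clone number of the labels alone. The counts showed little sign of it: clone 1 minus clone 17 had a Pearson r of 0.06 between the media over 3388 genes. Intervals cover counting error only.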

Additional observations from a re-analysis of the deposited data

Results flagged for a closer look

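Hk1 in WSB/EiJ iPSC clone 25 stood apart from its group, at 30.5 CPM against 8.83 to 10.8 in the other 3 clones. This was 3 counts against 1 or 2. The 10 members were tested this way in 2 groups of 4 libraries, 20 tests that share libraries, and chance marks about 1 in 20.

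Pkm changed in opposite directions between EpiSC and ESC of the 2 strains, by 0.40 on the log2 CPM scale in NOD/ShiLtJ and by -1.64 in 129. The fitted difference was 2.15, as given above. Ldha did likewise, by 0.29 and -1.44, with a fitted difference of 1.87. Each value comes from 1 library a state, and the EpiSC lines differed in origin and in passage (38 and 16).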

How the results depend on the processing

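Low counts on genes limit what can be called, since most genes of the pathway fell under the filter. Uniquely aligned pairs numbered 10104636 and 7702060 in the NOD/ShiLtJ male iPSC and 6082886 to 16307859 in the other libraries. The share of them on genes was 5.62% and 5.59% in those males and 1.15% to 1.74% in the others. Whether sequencing depth or the assignment of reads to genes set these counts was not tested. Of 620 recomputed values of single members, 577 kept their direction and side of the threshold, 34 lost it, 8 gained it and 1 reversed, Pfkp in NOD/ShiLtJ males with uniquely aligned pairs as library size (0.70), a scaling that moved the median of all genes from 0.18 to 2.61.

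For EpiSC against ESC, at least 10 counts in every library called 216 of 896 genes and 1 of 5 members. The groups of the comparison alone called 329 of 2745 genes and 3 of 8 members. Only genes without exons on the opposite strand called 172 of 1869 genes and 0 of 4 members. Hk1, Gpi1 and Aldoa are not among these genes. The fit with the NOD/ShiLtJ male iPSC called 207 of 4641 genes and 0 of 8 members, with Aldoa at -1.54. Leaving out 1 library gave 262 to 595 genes and 1 to 5 members. For iPSC against EpiSC no filter called 1874 genes, at least 10 counts 364 genes and 0 members, genes without opposite exons 373, and the NOD/ShiLtJ males 0 members; leaving out 1 EpiSC gave 585 to 944 genes and 0 to 1 members. For iPSC against ESC no filter called 600 of 16808 genes and 3 of 10 members, and at least 10 counts 45 of 896 and 1 of 5. Genes without opposite exons called 109 of 1869 and 0 of 4 members. The fit with the NOD/ShiLtJ males called 167 of 4641 genes and 0 of 8 members (Aldoa -1.06). Without the WSB/EiJ ESC 156 of 3913 genes were called, and leaving out 1 ESC gave 88 to 156 genes. Hk1 fell under the filter without the WSB/EiJ or 129S1/SvImJ ESC and with males only, and in iPSC against ESC fitted alone, where Pkm was called (adjusted p = 0.0399 from edgeR).

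For medium, no filter called 151 genes, at least 10 counts 22, genes without opposite exons 44, and leaving out 1 library 25 to 91; the clone as a replicate block called 79 genes and 0 members and changed no call of a member. For strain these were 343, 62 and 95 genes, and leaving out 1 library gave 133 to 207 genes and 0 to 1 members. For NOD/ShiLtJ males against females, DESeq2 called 1095 of 9804 genes and 3 of 9 members. At least 10 counts called 922 of 1042 genes and 4 of 5 members, and genes without opposite exons 271 of 1973 and 0 of 4. Uniquely aligned pairs called 3488 of 4457 genes and 6 of 7 members. TMM over genes without opposite exons called 1354 of 4457 genes and 1 of 7 members.

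Other library sizes moved the balance of calls. With uniquely aligned pairs the median of all genes was -0.29 in EpiSC against ESC, 0.62 in iPSC against EpiSC and 0.34 in iPSC against ESC, and the share of calls that were higher went from 54.6% to 37.2%, from 39.7% to 76.9% and from 40 of 248 calls to 60.4%. With TMM over genes without opposite exons, an alternative chosen after seeing the data, these shares were 72.5%, 20.5% and 11.8%. Aldoa, Gpi1 and Hk1 stayed called and lower than ESC under both, in EpiSC and in iPSC.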
